A study of Mus musculus with 15 samples.

Results

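The genes described here are the angiogenic factors Vegfa, Vegfb, Vegfc, Angpt1 and Hgf in sorted fibroblasts of the mouse thymus. They were chosen by name, and all 5 were among the 12763 genes of the UMI count table. All 5 also passed the expression filter, as did 10207 genes in all. The cells came from young male wild-type (WT) mice that were untreated (5 libraries) or had received sublethal irradiation of 425 rad either 1 day (5 libraries) or 3 days (5 libraries) before sacrifice, and the labels name no further allele or agent. Fibroblasts were sorted as CD45-CD31-CD34+PDGFRalpha+ cells, a gate whose label also gives EpCAM as positive, and MARS-seq counted captured 3′ mRNA ends by unique molecular identifiers (UMIs).

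The vascular endothelial growth factors are secreted ligands of receptor tyrosine kinases on blood and lymphatic vessels. VEGF-A acts through VEGFR1 and VEGFR2 and drives sprouting of blood vessels, VEGF-B binds VEGFR1, and VEGF-C acts mainly through VEGFR3 on lymphatic endothelium. Angiopoietin-1, the product of Angpt1, activates the receptor TIE2 and stabilises vessels, and stromal cells are among its sources. Hepatocyte growth factor, encoded by Hgf, is a mesenchymal ligand of the receptor MET on epithelial and endothelial cells.

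The genes lie on different chromosomes in GENCODE vM21 on GRCm38, the build that mm10 names. Vegfa occupies chr17:46016993-46032369 on the minus strand, Vegfb chr19:6982473-6987651 on the minus strand and Vegfc chr8:54077606-54187096 on the plus strand. Angpt1 occupies chr15:42424723-42676977 on the minus strand and Hgf chr5:16553495-16620152 on the plus strand. All 5 are protein-coding. The 5′ end of Angpt1 overlaps the antisense gene Gm17473 on the other strand, and Hgf overlaps the short predicted genes Gm43489 and Gm42975 on its own strand. Those 3 genes were not analysed here. Whether the counting used strand is not given in the sources used here. Counts of 3′ ends do not separate the splice forms of Vegfa.

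Vegfa, Vegfb and Vegfc changed in different directions, so the RefSeq promoters of these 3 genes (GRCm38.p6, the bases before the annotated start, 5′ to 3′ on the gene's strand) are shown side by side, with capitals marking the GC box GGGCGG or its reverse complement. The windows are chr17:46032378-46032627 for Vegfa (minus strand), chr19:6987652-6987901 for Vegfb (minus strand) and chr8:54077282-54077531 for Vegfc (plus strand).
Vegfa: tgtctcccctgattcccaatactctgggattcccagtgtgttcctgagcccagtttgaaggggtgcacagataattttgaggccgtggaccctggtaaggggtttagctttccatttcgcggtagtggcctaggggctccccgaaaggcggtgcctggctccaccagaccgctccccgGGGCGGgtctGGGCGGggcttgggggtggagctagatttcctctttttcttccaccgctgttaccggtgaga
Vegfb: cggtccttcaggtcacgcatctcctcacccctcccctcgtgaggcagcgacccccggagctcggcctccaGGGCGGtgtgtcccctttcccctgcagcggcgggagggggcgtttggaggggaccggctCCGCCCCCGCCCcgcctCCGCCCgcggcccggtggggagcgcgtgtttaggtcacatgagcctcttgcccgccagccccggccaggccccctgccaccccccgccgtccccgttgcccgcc
Vegfc: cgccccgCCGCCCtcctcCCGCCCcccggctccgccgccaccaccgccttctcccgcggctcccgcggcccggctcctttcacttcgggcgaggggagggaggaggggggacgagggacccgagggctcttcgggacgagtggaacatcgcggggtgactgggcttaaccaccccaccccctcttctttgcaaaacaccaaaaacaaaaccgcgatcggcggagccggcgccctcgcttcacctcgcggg

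Each window holds 250 bases, and none overlapped a GENCODE exon of its gene. The Vegfa window held 2 GC boxes, the Vegfb window 4 and the Vegfc window 2, while 32.7% of the 32851 RefSeq promoter windows of the same length held at least 1. GC content was 59.2% for Vegfa, 76.4% for Vegfb and 71.6% for Vegfc, against 53.2% over all windows. The core of hypoxia-inducible factor sites was searched as ACGTG, found in none of the 3 windows and in 16.6% of all, and as GCGTG, found 2 times for Vegfb, in neither other window and in 28.2% of all. A second RefSeq start of Vegfa has the window chr17:46025164-46025413, inside the gene and over annotated exons, and it held 1 ACGTG, 1 GCGTG and 1 GC box. The interferon-stimulated response element, searched as a pair of GAAA copies with 2 bases between them, was found 1 time, 142 bases before the first start of Vegfa, against 2.98% of all windows. The AP-1 motif TGANTCA (6.75% of all windows) and the STAT motif TTCNNNGAA (7.02%) were in none of the 3. Both strands were searched and no match overlapped another. These matches describe letters in the windows and not bound sites, and sequence further upstream was not searched. RefSeq windows were at hand for 4 of the 5 genes, Angpt1 having none.

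Levels below are CPM, UMIs per 1000000 of the library's UMIs in tested genes after TMM scaling, which corrects totals for differences in RNA composition. Library totals ran from 740169 to 3750214 UMIs. The irradiation marker Cdkn1a, which encodes the p53-induced cell cycle inhibitor p21, was at 194 ± 35.0 CPM (SD, n = 5) in untreated libraries, 1467 ± 316 at day 1 and 1215 ± 208 at day 3. Of the sort markers, Pdgfra averaged 310.2, 111 and 193 CPM and Cd34 1571, 523 and 1084 CPM in untreated, day 1 and day 3 libraries. Both were called lower at day 1 and at day 3 than in untreated libraries. Epcam gave 11, 10 and 10 UMIs in all over the untreated, day 1 and day 3 libraries. Day 1 replicate 1 had the fewest UMIs and stood apart on the second principal component (65.97), where the remaining day 1 libraries lay between -27.3 and -23.98. Day 1 changes of the 5 factors are therefore also given without it. The labels do not say that libraries came from separate mice, so tests measure the spread between these samples.

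Of the 5 factors, Vegfa rose and Vegfb, Vegfc and Angpt1 fell 1 day after irradiation. Vegfa reached 2.02 times its untreated level, Vegfb fell 1.92-fold, Vegfc 3.28-fold and Angpt1 2.06-fold. At day 3 Vegfa was still above and Vegfc and Angpt1 still below the untreated level, while Vegfb was above it, at 1.5 times. Hgf did not pass the test in any comparison. Of all 10207 genes tested, edgeR called 46.2% at day 1 against untreated, 18.4% at day 3 against untreated and 32.7% at day 3 against day 1 (adjusted p under 0.05). A call at day 1 is thus common in these data. At day 1, 1 of the 5 factors was called higher and 3 lower, against 23.1% of all genes in each direction. At day 3, 2 were called higher, against 9.2% of all genes, and 2 lower, against 9.25%. Between day 1 and day 3, 2 were called higher, against 16.1% of all genes, and none lower, against 16.6%.

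**Figure D1:**
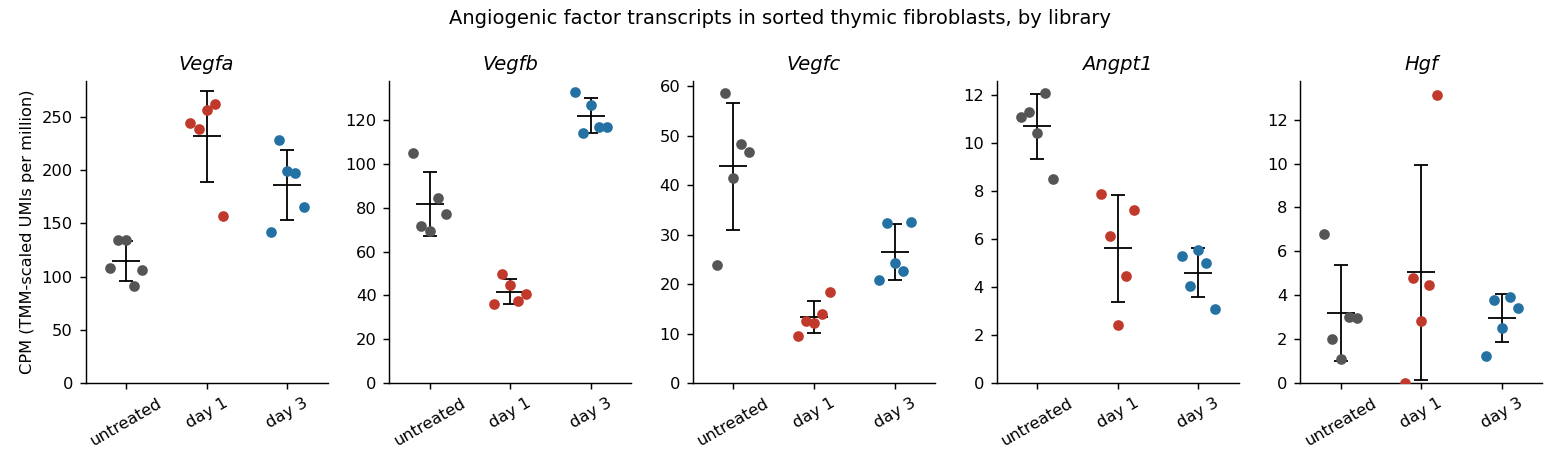
CPM of each factor (y axis, a separate scale for each gene) in untreated, day 1 and day 3 libraries, with 1 point per library in order of replicate number and mean ± SD in black (n = 5). Day 1 Vegfa values sit between 157 and 262 CPM, above all untreated values, while day 1 Vegfb values sit between 36.2 and 49.7 CPM, below all untreated and day 3 values.

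Vegfa was at 108, 134, 134, 91.0 and 106 CPM in untreated replicates 1 to 5. At day 1 the values were 244, 239, 257, 262 and 157 CPM. At day 3 they were 142, 228, 199, 197 and 165 CPM. All irradiated libraries lay above all untreated ones, and the day 1 and day 3 ranges overlapped. The log2 change was 1.02 ± 0.17 (SE) at day 1 (edgeR adjusted p = 4.5e-05) and 0.70 ± 0.17 at day 3 (edgeR adjusted p = 0.0057). Without day 1 replicate 1 the day 1 change was 1.01. From day 1 to day 3 Vegfa changed by -0.32 ± 0.16, which missed the threshold (edgeR adjusted p = 0.15), with an interval of 2 SE on either side from -0.65 to 0.01. That comparison turned on day 1 replicate 5, the lowest day 1 library. Without it the change was -0.44 and passed the test (edgeR adjusted p = 0.036), and over all alternatives that p ran from 0.036 to 0.45. Because these are bulk samples, a change in the share of cells that express a gene and a change in RNA per cell cannot be told apart.

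Vegfb stood at 105, 71.9, 69.4, 84.6 and 77.0 CPM in untreated libraries. Day 1 libraries held 36.2, 49.7, 44.8, 37.6 and 40.7 CPM. Day 3 libraries held 133, 114, 127, 117 and 117 CPM. The 3 groups did not overlap in any pair, with day 1 lowest, untreated in the middle and day 3 highest. Vegfb changed by -0.94 ± 0.15 at day 1 (edgeR adjusted p = 2.5e-05) and by 0.58 ± 0.14 at day 3 (edgeR adjusted p = 0.0056) relative to untreated libraries. Without day 1 replicate 1 the day 1 change was -0.89. From day 1 to day 3 it rose 2.87-fold, by 1.52 ± 0.15 on the log2 scale (edgeR adjusted p = 8.1e-08), and it is the single member of the 5 whose 2 changes against untreated libraries were called in opposite directions. Day 3 was also the group with the narrowest spread, with a coefficient of variation of 6.64% against 17.8% in untreated libraries.

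Vegfc was at 23.8, 58.6, 41.4, 48.4 and 46.8 CPM in untreated libraries. It fell to 9.45, 12.6, 12.1, 13.9 and 18.4 CPM at day 1. Day 3 values of 20.8, 32.4, 24.2, 22.6 and 32.6 CPM lay between. Day 1 was below both other groups without overlap, and day 3 overlapped the untreated group only through untreated replicate 1. The log2 change of Vegfc was -1.72 ± 0.22 at day 1 (edgeR adjusted p = 2.8e-06), or -1.66 without day 1 replicate 1. At day 3 it was -0.75 ± 0.20 against untreated libraries (edgeR adjusted p = 0.012), a p that lay between 0.0020 and 0.047 under the alternatives. Between the irradiated groups Vegfc rose by 0.97 ± 0.23 (edgeR adjusted p = 0.0024).

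Angpt1 was sparse, with 126 UMIs over the untreated libraries, 45 over day 1 and 70 over day 3. Untreated libraries held 11.1, 11.3, 10.4, 12.1 and 8.51 CPM. Day 1 libraries held 7.87, 6.11, 2.42, 4.45 and 7.22 CPM, and day 3 libraries 5.28, 4.05, 5.55, 5.01 and 3.09 CPM. Every irradiated library lay below every untreated one, and the irradiated groups overlapped. Angpt1 fell by 1.04 ± 0.28 on the log2 scale at day 1 (edgeR adjusted p = 0.0038) and by 1.22 ± 0.25 at day 3 (edgeR adjusted p = 0.0021). The day 1 change was -1.11 without day 1 replicate 1. Day 3 differed from day 1 by -0.18 ± 0.30 (edgeR adjusted p = 0.72), with an interval from -0.77 to 0.42, so a further fall or a partial rise within these bounds was not detectable at this depth.

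Hgf gave 3 to 9 UMIs per untreated library, 0 to 20 per day 1 library and 4 to 14 per day 3 library. Its levels were 6.81, 2.02, 1.08, 3.02 and 2.98 CPM untreated. At day 1 they were 0, 4.80, 2.83, 4.45 and 13.1 CPM, and at day 3 they were 1.24, 3.78, 2.52, 3.90 and 3.43 CPM. The 3 groups overlapped, and day 1 held both the lowest and the highest library. The count of 0 came from day 1 replicate 1, the shallowest library, where it allows up to 4.72 CPM (3 counts, counting error only). The log2 changes of Hgf were 0.91 ± 0.51 at day 1 (edgeR adjusted p = 0.15) and 0.11 ± 0.51 at day 3 (edgeR adjusted p = 0.92) relative to untreated libraries. Intervals of 2 SE were -0.12 to 1.94 for day 1 and -0.91 to 1.13 for day 3, so changes of the size seen for Vegfa were not detectable for Hgf at this depth. Without day 1 replicate 5, which held 20 of the 47 day 1 UMIs, the day 1 change was 0.35, and without day 1 replicate 1 it was 1.07 (edgeR adjusted p = 0.07).

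**Figure D2:**
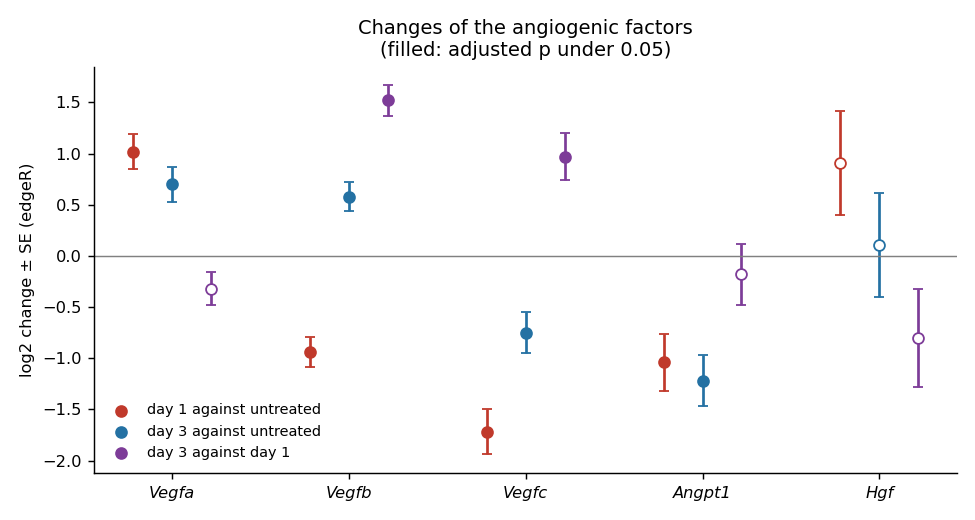
Log2 change ± SE from edgeR (y axis) of each factor at day 1 and day 3 against untreated libraries and at day 3 against day 1 (n = 5 per group), with filled points where the adjusted p was under 0.05. Vegfa lies above 0 at day 1 (1.02) and day 3 (0.70), Vegfb moves from -0.94 to 0.58, and Vegfc and Angpt1 lie below 0 at both times.

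In the authors' deposited table the same genes had adjusted p values under the threshold. Turned so that the later or irradiated group comes first, the changes in the authors' deposited table at day 1 were 1.03 for Vegfa, -0.91 for Vegfb, -1.71 for Vegfc, -1.04 for Angpt1 and 0.85 for Hgf. The authors' deposited table gave Hgf an adjusted p of 0.21 at day 1 and 0.98 at day 3. The authors' day 3 changes for Vegfa, Vegfb, Vegfc and Angpt1 in the authors' deposited table were 0.70, 0.59, -0.74 and -1.23.

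Ratios of UMIs within a library do not depend on how libraries are scaled, and they are given here as a description with no test. UMIs of Vegfa over those of Vegfb ranged from 1.02 to 1.93 in untreated libraries, between 3.87 and 6.96 at day 1, and from 1.07 to 2.0 at day 3. Day 1 thus stood above both other groups, and the untreated and day 3 ranges overlapped. The ratio of Vegfa to Vegfc was 1.88 to 4.54 untreated, 8.57 to 25.8 at day 1 and 5.06 to 8.72 at day 3, where both irradiated groups lay above the untreated one. The ratio of Vegfb to Vegfc was 1.23 to 4.43 untreated, 2.21 to 3.93 at day 1 and 3.52 to 6.40 at day 3, and each pair of groups overlapped. Angpt1 over Vegfa was 0.0780 to 0.133 untreated, 0.00942 to 0.0458 at day 1 and 0.0178 to 0.0370 at day 3. Its highest irradiated value was below its lowest untreated one. Hgf over Angpt1 was 0.103 to 0.615 untreated, 0.786 to 1.82 in the 4 day 1 libraries with Hgf UMIs and 0.235 to 1.11 at day 3. Day 1 replicate 1 had 0 Hgf UMIs over 5 of Angpt1, a ratio of 0, which lay below every untreated value.

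A further ligand of the same family, Vegfd, which like Vegfc acts on VEGFR3, is not one of the 5 genes. Vegfd held 63.8, 93.3, 93.2, 65.5 and 65.5 CPM in untreated libraries and 135, 219, 135, 215 and 179.8 CPM at day 1. At day 3 it held 145, 76.4, 127, 78.8 and 140.3 CPM. Day 1 lay wholly above the untreated group, and day 3 overlapped both. Vegfd rose by 1.22 ± 0.21 on the log2 scale at day 1 (edgeR adjusted p = 6.1e-05), and its day 3 change of 0.56 ± 0.20 missed the threshold (edgeR adjusted p = 0.057). Alternatives put that p between 0.027 and 0.16, and 5 of 23 gave a call, namely a fit of the compared groups alone and the fits without day 1 replicate 1 or 3 or day 3 replicate 2 or 4. Summed over Vegfa, Vegfb, Vegfc and Vegfd, the level was 289.5 to 358 CPM untreated, 396 to 528 at day 1 and 415 to 476 at day 3. Vegfa made up 36.0 ± 3.02% of these UMIs in untreated libraries, 49.9 ± 7.58% at day 1 and 41.7 ± 7.57% at day 3 (SD, n = 5). Vegfb went from 26.2 ± 6.23% to 9.10 ± 1.29% and 27.2 ± 2.01% in the same order. The share of Vegfc was 13.8 ± 3.77%, 2.92 ± 0.978% and 5.92 ± 1.18%. These shares rest on captured 3′ ends, and capture can differ between genes, so they compare groups and not genes.

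**Figure D3:**
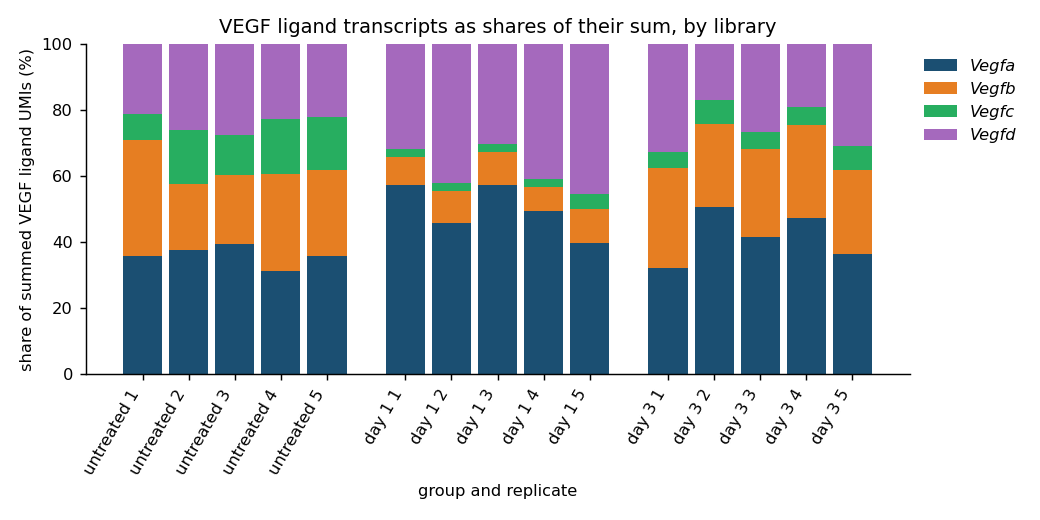
Share of each VEGF ligand in the summed UMIs of Vegfa, Vegfb, Vegfc and Vegfd (y axis, percent) in each library (x axis, group and replicate). The Vegfb and Vegfc segments are narrowest in the 5 day 1 libraries, where they average 9.10% and 2.92%.

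Genes with the most similar course over the 15 libraries were ranked by the root mean square difference of log2 CPM, each gene centred on its own mean, among 6223 genes with at least 20 CPM in a group. For Vegfa they were Ell, an elongation factor of RNA polymerase II, at 0.159, Igf2bp2, an mRNA-binding protein, at 0.187 and the transcription factor Ets2 at 0.225, followed by Vasn and Ptpn23. The median difference from Vegfa over all genes compared was 0.60. For Vegfb they were the lysosomal protease Ctsf at 0.24, the lysosomal lipase Lipa at 0.241 and the microfibril protein Mfap2 at 0.244, then Tbc1d16 and Scarf2, with a median of 0.75 over all genes. Vegfc was closest to the sodium channel gene Scn7a at 0.226, the scaffold gene Akap12 at 0.242 and the sort marker Pdgfra at 0.244, then Oxct1, with a median of 0.83. Pdgfra fell from 310.2 ± 40.2 to 111 ± 29.9 CPM at day 1 and stood at 193 ± 29.7 at day 3. Angpt1 was closest to Calu, a calcium-binding protein of the secretory pathway, at 0.288 and Map6 at 0.309, then Nin, Myl6 and Snx18, and its median was 0.73. The closest gene to Hgf, Bcl6, was at 0.558, within a range to 0.606 for the first 5 (also 4933434E20Rik, Cdr2, Mrpl39 and Plrg1), and the median was 0.99. With totals in place of TMM scaling, 4 of the 5 closest genes were shared for Vegfa, 5 for Vegfb, 5 for Vegfc, 4 for Angpt1 and 3 for Hgf.

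Receptors and relatives of the factors were followed in lists of angiogenesis genes written from general knowledge. In the list of other VEGF ligands and receptors, 2 of 6 tested genes rose and 2 fell at day 1, and none was called at day 3 against untreated libraries. The share called was 66.7% at day 1, against 46.2% of all genes, and 0% at day 3, against 18.4%, and the median log2 change was 0.50 and -0.23, against -0.02 and -0.01 over all genes tested. The members that fell at day 1 were the co-receptors Nrp1 (-1.47 ± 0.36, edgeR adjusted p = 0.0034) and Nrp2 (-1.57 ± 0.27, edgeR adjusted p = 7.7e-05). Nrp2 was at 53.8 ± 12.2 CPM untreated, 17.8 ± 11.2 at day 1 and 34.2 ± 2.41 at day 3. Flt1, which encodes VEGFR1, the receptor that Vegfa and Vegfb share, averaged 2.27 CPM in untreated libraries, 10.8 at day 1 and 2.68 at day 3 (30, 93 and 42 UMIs). It rose by 2.05 ± 0.51 at day 1 (edgeR adjusted p = 0.0028), or by 2.83 without untreated replicate 3 and by 1.46 without day 1 replicate 4. Kdr, which encodes VEGFR2, was at 14.9 ± 5.81, 25.7 ± 13.6 and 28.1 ± 12.9 CPM in the 3 groups and was not called.

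Beside Angpt1, the list of angiopoietins, their receptors and angiopoietin-like genes had 1 of 7 genes higher and 4 lower at day 1 and 1 higher and 2 lower at day 3. These are 71.4% and 42.9% of the list, against 46.2% and 18.4% of all genes. Tek, which encodes TIE2, the receptor of angiopoietin-1, was at 28.9, 42.8, 71.2, 41.0 and 39.2 CPM in untreated libraries and at 12.6, 14.4, 16.5, 15.3 and 19.7 CPM at day 1. All day 1 values were lower than all untreated ones. Tek changed by -1.50 ± 0.22 at day 1 (edgeR adjusted p = 1e-05) and by -0.68 ± 0.19 at day 3 (edgeR adjusted p = 0.019), a p that lay between 0.0071 and 0.096 under the alternatives. The day 3 call was lost without untreated replicate 3 (-0.44) and without day 3 replicate 4 (-0.59). Angptl1, an angiopoietin-like secreted protein, changed by -3.65 ± 0.30 at day 1 (edgeR adjusted p = 1.8e-08), and Angptl4, an inhibitor of lipoprotein lipase, by 0.90 ± 0.15 (edgeR adjusted p = 4.2e-05). In the HGF list of receptor, activators and inhibitors, 4 of 11 genes passed the filter and 1 was called at day 1 (25.0%, against 46.2% of all genes) and none at day 3 (against 18.4%). The called gene was the protease inhibitor Spint2, at 3.68 ± 1.41 CPM untreated and 14.8 ± 8.14 at day 1 (edgeR adjusted p = 0.005). Met, which encodes the HGF receptor, fell below the filter. Mst1r, among the 4 tested genes, encodes the receptor of the related ligand Mst1, so no receptor of HGF was tested.

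Genes of the hypoxia-inducible factor system and its targets, of which Vegfa is a known one, counted 9 higher and 2 lower of 23 at day 1 and 4 higher and 2 lower at day 3. The share called in either direction was 47.8% at day 1, close to the 46.2% over all genes, and 26.1% at day 3, against 18.4%. Of all genes, 23.1% were called higher and 23.1% lower at day 1, and 9.2% and 9.25% at day 3. The glucose transporter gene Slc2a1 changed by 1.96 ± 0.23 at day 1 (edgeR adjusted p = 5.7e-07) and 1.08 ± 0.22 at day 3 (edgeR adjusted p = 0.0021). The stress-induced mTORC1 inhibitor Ddit4, also a p53 target, rose by 3.23 ± 0.50 at day 1 (edgeR adjusted p = 1.2e-04). Egln1, an oxygen-sensing prolyl hydroxylase, changed by -1.18 ± 0.22 at day 1 (edgeR adjusted p = 1.4e-04).

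In the list named other secreted angiogenic factors, 7 of 14 genes rose and 2 fell at day 1, and 2 rose and 3 fell at day 3. This is 64.3% and 35.7% called, against 46.2% and 18.4% of all genes. The list also holds the membrane-bound ligands Efna1, Efnb2 and Jag1. Of these, Efna1 was among the genes called higher at day 1 and Jag1 among those called lower at day 3. The EGF receptor ligand Hbegf changed by 1.85 ± 0.27 at day 1 (edgeR adjusted p = 8.9e-06) and 1.27 ± 0.26 at day 3 (edgeR adjusted p = 0.0021), and the heparin-binding factor Ptn by -2.13 ± 0.22 at day 1 (edgeR adjusted p = 8.6e-08). In the list of angiogenesis inhibitors, 5 of 16 genes were higher and 10 lower at day 1, 93.8% called against 46.2% of all genes. At day 3, 2 were higher and 6 lower, 50% against 18.4%. The list includes Vash2, Sema3c and Slit2, which are not inhibitors in every setting, so its counts do not measure a loss of inhibition. Serpinf1, which encodes the inhibitor PEDF, fell from 3251 ± 222 to 1435 ± 115 CPM at day 1 (edgeR adjusted p = 2.5e-07). Timp3, a metalloproteinase inhibitor that also blocks VEGF-A at VEGFR2, changed by -1.57 ± 0.20 at day 1 and -1.07 ± 0.19 at day 3 (edgeR adjusted p = 1.7e-06 and 7e-04). Col18a1, source of endostatin, was higher by 0.87 ± 0.20 at day 1 and 1.15 ± 0.20 at day 3 (edgeR adjusted p = 0.0014 and 5.7e-04). The other genes of this list called higher at day 1 were Thbs1, Sema3f, Adamts1 and Pf4. Over the 6 lists together, 25 of 70 genes were higher and 20 lower at day 1, 64.3% called against 46.2% of all genes. The counts became 17 and 26 with total-count scaling, a scaling that moves the median of all genes from -0.02 to -0.29.

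**Figure D4:**
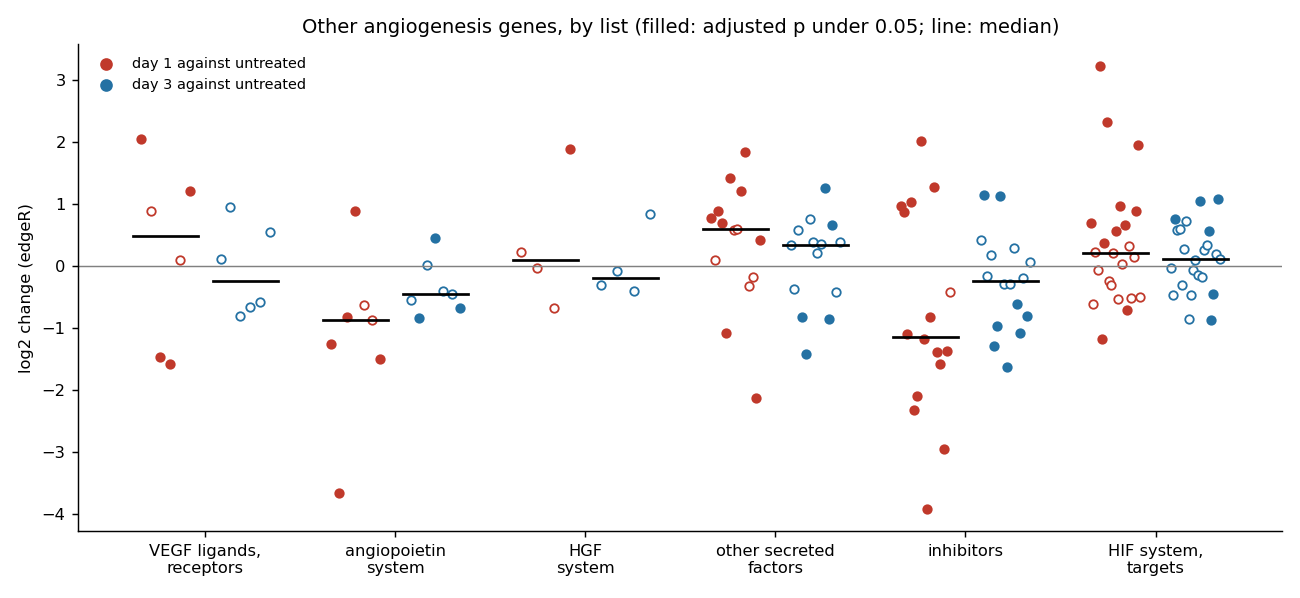
Log2 change (y axis) of each tested gene of the 6 angiogenesis lists (x axis) at day 1 and day 3 against untreated libraries, which both comparisons share, with filled points where the edgeR adjusted p was under 0.05 and a line at the list's median. The inhibitor list at day 1 has 10 points called below 0 and 5 above, with a median of -1.14.

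Markers of other cell types were set beside these values, and their part in the changes was not tested. Endothelial markers, with all 12 in the table, summed to 118 to 203 CPM untreated, 142 to 429 at day 1 and 128 to 209 at day 3, and the list shares Kdr, Flt1 and Tek with the receptor lists above. The defining endothelial gene Cdh5 was at 0.394 ± 0.523, 3.63 ± 5.74 and 0.253 ± 0.282 CPM (SD) in the 3 groups (5, 35 and 4 UMIs). Pecam1 was at 2.72 ± 1.55, 6.94 ± 7.61 and 3.08 ± 1.19 CPM. For both genes the day 1 SD exceeded the mean. The sum was highest in day 1 replicate 4, which also held the highest Flt1 level, 22.8 CPM. Macrophage and dendritic cell markers (13 of 14 in the table) summed to 78.9 to 410 CPM untreated, 575 to 1178 at day 1 and 53.5 to 127 at day 3, and Ptprc averaged 2.95, 3.84 and 0.551 CPM. On average the macrophage and dendritic cell sum was highest at day 1 and lowest at day 3. Its largest part was Cd74, at 115, 432 and 47.0 CPM. Csf1r averaged 7.78, 39.3 and 13.5 CPM, Cd68 10.5, 65.0 and 24.9, and Lyz2 43.4, 33.2 and 6.20. These genes did not share the order of the sum, and the remaining listed genes did. Mesothelial markers (10 of 10) summed to 175 to 635 CPM untreated, 633 to 4330.3 at day 1 and 408 to 1996 at day 3. Day 1 replicate 5 had both the lowest mesothelial sum and the lowest Vegfa level of that group. At day 3 the order differed, as replicate 1 had the highest mesothelial sum (1996 CPM) and the lowest Vegfa level (142 CPM). Thymic epithelial markers (4 of 9) summed to 12.5 to 27.3, 13.1 to 187 and 18.7 to 103 CPM in the same order. Of these 4, Krt14 averaged 1.95, 35.1 and 29.3 CPM and Cldn3 16.1, 45.5 and 19.5. Epcam averaged 0.782, 1.15 and 0.59 CPM and Aire 1.52, 1.05 and 0.118. Pericyte and smooth muscle markers (11 of 11) summed to 299 to 514, 516 to 804 and 258 to 469.7 CPM. Among them Abcc9 averaged 45.2 CPM untreated and 6.68 at day 1, and Rgs5 15.9 and 11.4. The others averaged higher at day 1 than untreated, as Tagln (32.8 and 144 CPM) and Notch3 (31.3 and 131 CPM). Fibroblast markers (12 of 12) summed to 51004 to 57347 CPM untreated, 14386 to 29339.9 at day 1 and 41476 to 49195 at day 3.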

How the data were processed

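The deposited table holds raw UMI counts for 12763 genes in 15 libraries, not scaled by the authors, per the file headers. Tools named in the submitters' processing notes are STAR 2.5.2b and HTSeq (mm10), besides bcl2fastq, cutadapt and DESeq2. The authors' comparisons give log2 fold changes and adjusted p-values with the untreated or earlier group first, per the file headers, so signs were turned here. For all 4717, 1883 and 3335 genes called here in the 3 comparisons, the turned sign was that of the counts. Another 30 deposited columns were not used.

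Counts of all 15 libraries entered 1 edgeR quasi-likelihood fit with group as factor, TMM scaling and filterByExpr, which kept 10207 genes. P-values were adjusted by Benjamini-Hochberg over all of them (threshold 0.05), and the SE is the log2 change over the square root of F. The fit was tested on simulated data with 200 changed genes. For day 1 against untreated it recovered 20.9% of 1.5-fold, 55.2% of 2-fold and 92.4% of 4-fold changes. A gene that was not called may therefore still have changed. Log2 CPM for the ranking of similar genes used a prior count of 2. Genes named beside the 5 are the sort markers, Cdkn1a, up to 3 called genes of smallest p per list and comparison, and the 5 most similar genes per factor, of which 1 is not reported here. Nrp1, Kdr, Met, Cdh5, Pgf, Esam, Plvap, Emcn, Vash2 and Sema3c were chosen after their values were seen. So were Cd74, Csf1r, Cd68, Lyz2, Krt14, Cldn3, Aire, Abcc9, Rgs5, Tagln, Notch3, Thbs1, Sema3f, Adamts1, Pf4, Efna1, Efnb2 and Jag1. Members and lists were chosen with earlier results of these data known. The alternatives were DESeq2, limma voom, RLE or total-count scaling, no filter, a minimum of 10 counts in 5 libraries, a fit of the compared groups alone, a replicate block, and each library left out in turn. Versions were edgeR 4.0.16, DESeq2 1.42.0 and limma 3.58.1 under R 4.3.3, and pandas 2.3.3, numpy 2.4.6 and matplotlib 3.10.9 under Python 3.11.15.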

Additional observations from a re-analysis of the deposited data

Results flagged for a closer look

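Vegfa in day 1 replicate 5 was at 157 CPM, far from the other 4 day 1 libraries, the nearest of which was at 239 CPM. Its gap to the nearest library was 0.778 of the group's range, above the critical value of 0.71 for 5 samples. It was the only one of 15 groups of 5 values so marked, and chance marks about 1 group in 20.

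The change of Vegfb at day 3 exceeded that at day 1 by 1.52 on the log2 scale (edgeR adjusted p = 8.1e-08), with every day 3 library above every day 1 library. For Vegfc the difference was 0.97 (edgeR adjusted p = 0.0024), again without overlap between the 5 day 3 and 5 day 1 libraries. Both differences rest on the day 3 against day 1 comparison itself, in which the untreated libraries cancel.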

How the results depend on the processing

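The 10 called changes of Vegfa, Vegfb, Vegfc and Angpt1 kept their direction and their call under all 23 alternatives each, 230 in all. Vegfa at day 3 against day 1 was called in 1 of 23, and leaving out single libraries moved it between -0.44 and -0.23. Hgf was not called under any alternative that tested it, 14 of 23, since the filter removed it in the other 9. Its change at day 3 against untreated libraries, 0.11, turned to -0.01 with total counts and ran from -0.0038 to 0.41 as single libraries were left out. The cause was not tested. No count of called genes moved by over 1.5 times, but total-count scaling moved the share of higher calls from 49.9% to 29.1% at day 1, from 49.9% to 31.4% at day 3 and from 49.3% to 65.7% between them. For the 6 lists the share of higher calls moved from 55.6% to 39.5%, from 40.9% to 28.6% and from 53.3% to 72.4%. Of the list genes followed, 16 of 16 were called under every alternative at day 1, 9 of 13 at day 3 against untreated libraries and 14 of 16 at day 3 against day 1. At day 3 against untreated libraries Tek lost its call in 2 of 23 alternatives, Angptl1 in 7 and Angptl4 in 8, and Vegfd gained one in 5. At day 3 against day 1 Vegfd lost its call in 4 and Mst1r in 12.

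Same-numbered libraries showed little shared deviation (correlation above 0.1 in 4 of 15 pairs, range -0.352 to 0.166). In 3 of 15 pairs a library correlated best with its own number. No pairing by number was seen, which does not show that there was none. With the replicate number as a block, the changes at day 1 were 1.01 for Vegfa, -0.93 for Vegfb, -1.73 for Vegfc and -1.03 for Angpt1, and the calls over all genes were 4511, 1596 and 3102 in place of 4717, 1883 and 3335.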

Other observations

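Genes of the endothelial marker list had different courses in these cells, which were sorted as CD31-. Esam, an adhesion molecule of endothelial junctions, was at 6.65 ± 4.70 CPM in untreated libraries, 62.6 ± 29.2 at day 1 and 35.1 ± 17.8 at day 3 (SD, n = 5). Plvap, a protein of endothelial fenestrae, was at 68.8 ± 38.0, 73.8 ± 46.4 and 69.1 ± 12.7 CPM in the same order. Emcn, an endothelial sialomucin, was at 1.61 ± 0.776, 3.00 ± 4.74 and 0.309 ± 0.245 CPM, from 18, 29 and 5 UMIs. Placental growth factor, Pgf, another ligand of VEGFR1, was at 67.1 ± 19.4 CPM untreated, 77.3 ± 48.8 at day 1 and 45.2 ± 13.3 at day 3 (SD, n = 5) and was not called in any comparison.

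The matricellular gene Ccn1, an integrin ligand that promotes vessel growth, was at 788 ± 213 CPM untreated, 1283 ± 397 at day 1 and 446 ± 88.9 at day 3. It was called higher at day 1 than in untreated libraries (0.70 ± 0.21, edgeR adjusted p = 0.01). It was called lower at day 3 than in untreated libraries (-0.82 ± 0.21, edgeR adjusted p = 0.011) and than at day 1 (-1.52 ± 0.22, edgeR adjusted p = 1.5e-05). Its relative Ccn2 was at 203 ± 74.9, 94.7 ± 29.3 and 75.7 ± 12.8 CPM and changed by -1.08 ± 0.22 at day 1 (edgeR adjusted p = 4.7e-04) and by -1.42 ± 0.22 at day 3 (edgeR adjusted p = 2e-04).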
